A study of Arabidopsis thaliana with 4 samples.

Results

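The nuclear genome of Arabidopsis encodes most protein subunits of the light-harvesting antennae and many subunits of the photosystems, and transcripts of 51 such genes were followed. They are the LHCB and LHCA antenna genes, the PSA and PSB genes of photosystems I and II, and the genes of the Rieske protein (PETC), plastocyanin (PETE1 and PETE2), ferredoxin 2 (FD2), ferredoxin-NADP reductase (LFNR1 and LFNR2) and the gamma and delta subunits of the chloroplast ATP synthase (ATPC1 and ATPD). The genes were listed by name, with no cut on a measured value, but earlier results of these data were known when the set was chosen. They are 51 of 32833 nuclear, chloroplast and mitochondrial loci in the deposited files. All 51 were found in the files, with 74 transcript entries, and all 51 reached the minimum of 40 reads in the libraries together.

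Nuclear RNA was taken from Col-0 plants aged 4 weeks, kept on soil at 22 °C in days of 16 h light and 8 h dark. The tissue is labelled leaf in one field and aerial tissue in another, and it was crosslinked in 0.1% formaldehyde before nuclei were isolated. One line carried MTA-GFP, a GFP fusion of the methyltransferase that writes N6-methyladenosine on messenger RNA, and the control line is named after GFP in its title but after CFP where the genotype is given. The labels name no promoter for either transgene. From each line the nuclear fraction was sequenced as an input and as an immunoprecipitate (IP) on GFP-Trap beads, which makes 4 libraries with 1 library in each group. The IP and the input of one line form a pair, called the MTA pair and the control pair, and libraries are called MTA input, MTA IP, control input and control IP. The series as a whole concerns methylation of primary microRNA transcripts.

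In the thylakoid membrane, light-harvesting complexes collect light and pass its energy to photosystem II, which splits water, and to photosystem I, which reduces ferredoxin. Cytochrome b6f and plastocyanin carry electrons between the photosystems, and the ATP synthase uses the proton gradient that results. The reaction-centre proteins are encoded in the plastid, whereas the antenna proteins and the peripheral subunits are encoded in the nucleus, made in the cytosol and imported. In leaves the nuclear genes of this set are among the most highly transcribed, and many are controlled by light and by GOLDEN2-LIKE transcription factors.

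The files assigned 36098699 to 45198238 reads per library, of which 1010426, 3039649, 1721505 and 954168 fell on nuclear mRNA. Values always come in the order of the MTA input and IP, then the control input and IP. The MTA transcript held 2291, 12860, 64 and 31 reads, so the line labelled MTA-GFP stood apart. Mesophyll markers were plentiful, with 6872, 12655, 3965 and 2530 reads of RBCS1A, the small subunit of Rubisco. The flower genes AP3 and LFY and the root-hair gene COBL9 had 0 to 3 reads in each library. Another root gene, PYK10, had 27, 54, 66 and 8 reads. Chloroplast RNA of all kinds took 19.6%, 5.88%, 22.1% and 49.8% of reads. One locus, AT2G16586, held 13.8% of the mRNA reads of the control IP against 0.48% to 1.57% elsewhere, so shares of mRNA are also given without it. Intervals are 95% intervals that cover counting error only, and since PCR copies are counted they may be too narrow. With 1 library a group no difference has a replicate check and no p-value is given, and each comparison is one of libraries, not of the conditions behind them.

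The 51 genes made up a similar part of the nuclear mRNA in 3 of the libraries and a much smaller part in the control input. Their share of nuclear mRNA reads was 8.79% (95% Wilson interval 8.73 to 8.84) in the MTA input and 7.57% (7.54 to 7.6) in the MTA IP. It was 3.06% (3.03 to 3.08) in the control input and 6.58% (6.54 to 6.63) in the control IP. The inputs thus differed 2.87-fold (2.84 to 2.9), while the IPs differed 1.15-fold (1.14 to 1.16). Without AT2G16586 the shares were 8.87, 7.6, 3.11 and 7.64%, and the IPs then differed 0.995-fold (0.986 to 1.0), within counting error. The size of the set relative to other mRNA was therefore nearly equal in both IPs and unequal in the inputs.

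As a share of all reads the order of the libraries was another one. The 51 genes took 0.202, 0.637, 0.132 and 0.139% of all reads, 3.15-fold (3.13 to 3.18) in the MTA pair and 1.06-fold (1.04 to 1.07) in the control pair. The MTA IP was highest on this scale and the control libraries lowest. Nuclear mRNA as a whole took 2.3%, 8.42%, 4.3% and 2.11% of reads, also highest in that IP. In bulk nuclear RNA, fewer mesophyll nuclei and less of these RNAs per nucleus cannot be told apart.

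**Figure D1:**
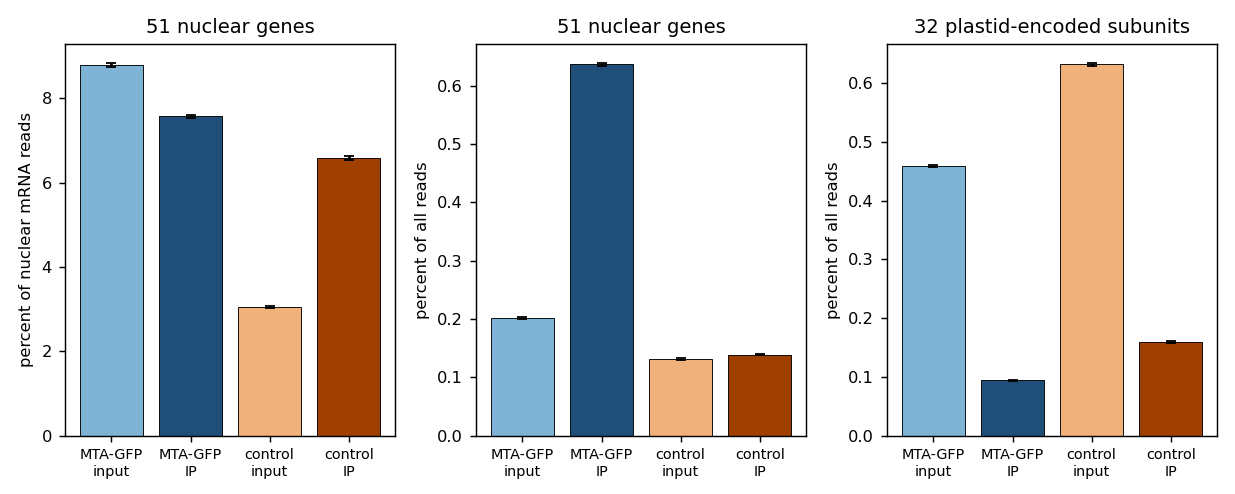
Share of reads in each library, in percent, for the 51 nuclear genes over nuclear mRNA reads (left) and over all reads (middle), and for 32 plastid-encoded subunits over all reads (right); bars are single libraries and error bars are 95% Wilson intervals. Over mRNA reads the control input is lowest at 3.06%, over all reads the MTA IP is highest at 0.637%, and the plastid-encoded subunits are lower in both IPs than in both inputs.

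Compared per length, as reads per kilobase scaled to the same total over nuclear mRNA in each library, the set held some of the most abundant nuclear mRNAs. Of the 51 genes, 38, 35, 24 and 35 were among the 100 highest of 27428 mRNA loci. The median gene stood at 1796, 1548, 767 and 1226 on this per-length scale. LHCB1.3 was the highest of the set in both inputs, at 16133 and 5417, and LHCB1.5 the highest in both IPs, at 16946 and 14490.0. LHCB4.3, an isoform of the CP29 antenna protein, was the lowest in every library, at 70.4, 25.3, 15.4 and 24.2. The genes thus differed widely in level within a library, and their order was closest between the IPs. Spearman's rho of the per-length levels over the 51 genes was 0.99 between the IPs and 0.96 between the inputs. It was 0.88 between MTA input and IP and 0.87 between control input and IP. These values describe the order of genes that share libraries and are given without a test.

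**Figure D2:**
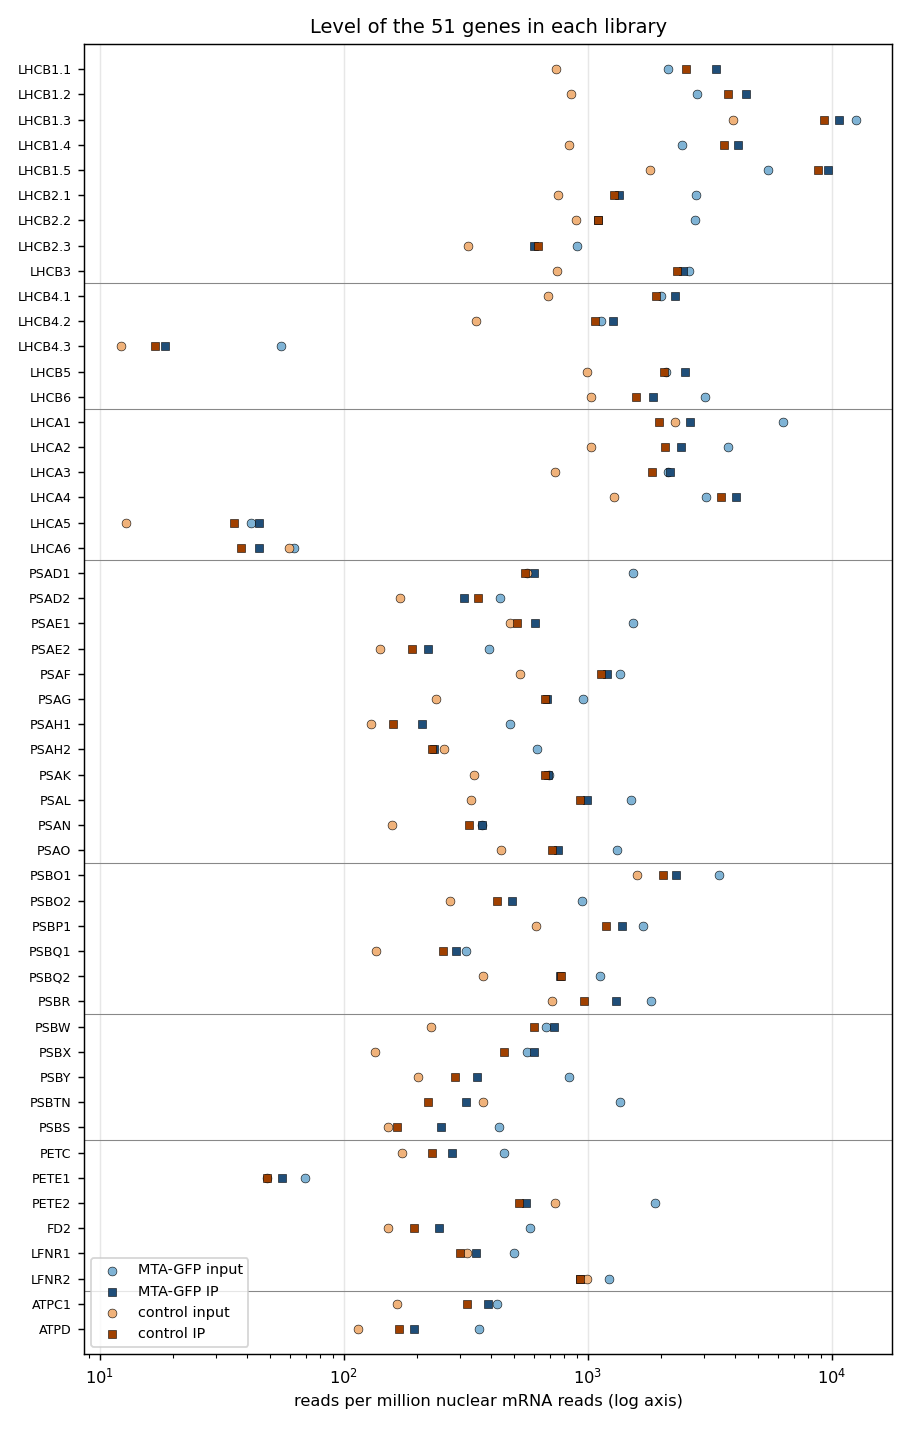
Reads of each gene per 1000000 nuclear mRNA reads (CPM) for the 51 genes (rows, grouped by role and separated by lines) in the 4 libraries, on a log axis; circles are inputs and squares are IPs, each a single library. For 39 genes the MTA input is highest and for 42 the control input is lowest, and both IPs lie between the inputs for 30. The same counts were not made over all loci. LHCB1.5 took 9624 and 8747 in the IPs.

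Ratios of single genes were formed on reads scaled by TMM, which places the typical nuclear locus near a log2 ratio of 0. Calls of higher or lower need a ratio of 2-fold or more and an interval off 1. Against their own input, the genes of the set were mostly lower in the MTA IP and mostly higher in the control IP. In the MTA pair, 18 of 51 genes were lower and 0 higher, against 8.4% and 7.12% of 15669 tested loci, and the median log2 ratio was -0.79 against -0.034 for all tested loci. In the control pair, 26 were higher and 0 lower, against 9.18% and 12.4% of all loci, with a median of 1.02 against -0.013. Most genes therefore lay on opposite sides of 0 in the pairs, 41 of 51 in this direction and 0 in the other. The share of all tested loci with this pattern was not computed. The double ratio, the first ratio divided by the other, was lower at 47 genes and higher at 0, against 8.9% and 8.6% of all loci. Its median was -1.74 against -0.0081 for all loci. It uses all 4 libraries and shares them with every other ratio, so it is no separate evidence.

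Compared directly, the inputs differed and the IPs did not pass the size rule at any gene. In the MTA input against the control input, 47 of 51 genes were higher and 0 lower, against 7.02% and 6.8% of all loci, with a median of 1.59 against -0.0054. In the MTA IP against the control IP, 0 were higher and 0 lower, against 5.11% and 4.2% of all loci, with a median of -0.15 against -0.0073. The log2 ratios of the 51 genes between the IPs ran from -0.54 at PSAD2 to 0.25 at PSBS, and their interquartile range of 0.17 can be set beside 0.74 over all loci, most of which had fewer reads. The intervals of 22 of 51 genes included 0. A difference under 2-fold between the IPs is not shown to be absent by this rule. The ratios that rest on the control input are those of the control pair, the double ratio and the inputs, and without that library the MTA pair and the comparison of the IPs remain, with the values above.

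The directions depend on the scale, because scaling the reads of a library moves all its loci by the same amount. Scaled to all reads, the median of all tested loci moved by 2.14 in the MTA pair, -1.11 in the control pair, 3.26 in the double ratio, -0.94 between the inputs and 2.32 between the IPs. On that scale 50 of 51 genes were above 0 in the MTA pair, 20 in the control pair, 51 in the double ratio, 47 between the inputs and 51 between the IPs. Scaled to nuclear mRNA reads the numbers above 0 were 12, 42, 1, 51 and 47. The gene above 0 in the double ratio was LHCA6. The higher level in the MTA input than in the control input was thus the direction found at most genes on all these scales. The calls turn as well, since in the double ratio 48 genes were higher and 0 lower on all reads, and 1 higher and 0 lower on deposited TPM. The median of all tested loci in the double ratio was 3.25 on all reads and 1.11 on TPM. The share of all loci called on these scales was not computed, so whether these counts are particular to the set was not tested. On TPM 47, 44, 24, 50 and 51 of the genes were above 0. Relative to the median of all tested loci on the same scale, the median gene of the set in the MTA pair stood at -0.76 on TMM, -0.73 on all reads, -0.75 on mRNA reads and -0.25 on TPM. In the control pair these distances were 1.03, 1.0, 1.03 and 0.97, and in the double ratio -1.74, -1.69, -1.73 and -1.14. Between the inputs they were 1.6, 1.58, 1.6 and 1.44. The distance to the typical locus thus kept its sign in these 4 comparisons on all 4 scales. Between the IPs it did not, at -0.14, -0.11, -0.14 and 0.27. The ratios of single genes that follow are relative to the typical nuclear locus by TMM.

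**Figure D3:**
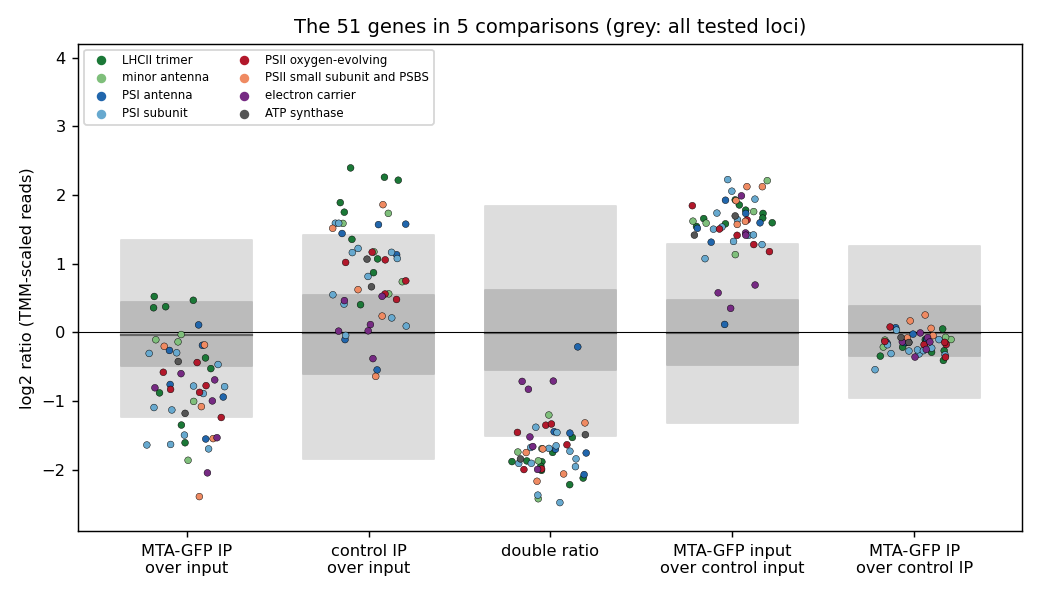
Log2 ratios of TMM-scaled reads of the 51 genes (points, coloured by role, with random horizontal offset) in 5 comparisons of single libraries; grey bands hold 5 to 95% (light) and 25 to 75% (dark) of 15669 tested loci and the grey line is their median. The points lie lowest in the double ratio, with a median of -1.74, and close to 0 between the IPs, with a median of -0.15; scaled to all reads, the 51 points of the double ratio would all lie above 0.

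The trimeric antenna of photosystem II, LHCII, is built from the proteins of LHCB1, LHCB2 and LHCB3 (AT5G54270), which bind most of the leaf's chlorophyll. Its 9 genes took 3.44, 3.78, 1.09 and 3.32% of nuclear mRNA reads, and the control input was again the lowest library. LHCB1.3 (AT1G29930) took 12523, 10662, 3919 and 9260.3 reads per 1000000 nuclear mRNA reads (CPM). LHCB1.5 (AT2G34420) took 5456, 9624, 1799 and 8747. Both were higher in the control pair, at log2 ratios of 1.35 (1.31 to 1.4) and 2.4 (2.34 to 2.46). In the MTA pair they lay on opposite sides of 0, LHCB1.3 at -0.53 (-0.56 to -0.5) and LHCB1.5 at 0.52 (0.48 to 0.56). LHCB1.1 (AT1G29920) took 2132, 3356, 740.4 and 2536, LHCB1.2 (AT1G29910) took 2808, 4466, 849.8 and 3760.5 and LHCB1.4 (AT2G34430) took 2437, 4137, 838 and 3598 CPM. These 3 genes and LHCB1.5 were the genes of the LHCII group above 0 in both IPs, the 3 at 0.36, 0.37 and 0.47 in the MTA pair and at 1.89, 2.26 and 2.22 in the control pair. With the exception of LHCA4 (AT3G47470), no other gene of the whole set was above 0 in both.

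The LHCB2 genes, whose proteins are the phosphorylated LHCII subunits that move during state transitions, had lower ratios in both pairs than all 5 LHCB1 genes. LHCB2.1 (AT2G05100) took 2776, 1337, 757 and 1278, LHCB2.2 (AT2G05070) 2736, 1102, 898 and 1097 and LHCB2.3 (AT3G27690) 906, 603, 323 and 627 CPM. In the MTA pair they were at -1.35 (-1.42 to -1.28), -1.61 (-1.68 to -1.54) and -0.88 (-1.0 to -0.77), the first 2 past the size rule. With the control, LHCB2.3 was past the rule upward at 1.07 (0.9 to 1.24), LHCB2.1 was at 0.87 and LHCB2.2 at 0.4. LHCB3, the subunit of the inner trimers, took 2599, 2465, 746 and 2321 CPM and was at -0.37 in the MTA pair and 1.75 in the control pair. All 9 LHCII genes were lower in the double ratio, from -2.22 at LHCB2.1 to -1.53 at LHCB1.1, and all 9 were higher in the MTA input than in the control input, by 1.54 to 1.93. The shares of all tested loci with these calls were 8.9% and 7.02%.

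The minor antenna proteins CP29 (LHCB4), CP26 (LHCB5) and CP24 (LHCB6) link LHCII to the photosystem II core. LHCB4.1 (AT5G01530) took 1992, 2270.3, 688 and 1909.5, LHCB4.2 (AT3G08940) 1137, 1269, 349 and 1073, LHCB5 (AT4G10340) 2083, 2503, 988 and 2058 and LHCB6 (AT1G15820) 3032, 1854, 1026 and 1580.4 CPM. The first 3 were nearly as abundant relative to the typical locus in the MTA IP as in its input, at -0.11, -0.14 and -0.032, and higher in the control IP, at 1.59, 1.73 and 1.17. LHCB6 was lower in the MTA pair at -1.01 (-1.07 to -0.94) and at 0.74 in the control pair. LHCB4.3 (AT2G40100) had 56, 56, 21 and 16 reads, so its values are loose. It was lower in the MTA pair at -1.86 (-2.45 to -1.33), and its interval of -0.46 to 1.58 in the control pair included 0.

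Photosystem I carries its own antenna belt of LHCA1 (AT3G54890) to LHCA4, while LHCA5 (AT1G45474) and LHCA6 (AT1G19150) are minor proteins that tie photosystem I to the NDH complex of cyclic electron flow. LHCA4 took 3061, 4052, 1280.3 and 3528 CPM, and was above 0 in both IPs at 0.11 (0.051 to 0.17) and 1.58 (1.5 to 1.65). LHCA1 took 6278, 2626, 2283 and 1961. In contrast to LHCA4 it was below 0 in both IPs, at -1.55 (-1.6 to -1.51) in the MTA pair and -0.11 (-0.19 to -0.026) in the control pair. LHCA2 (AT3G61470) took 3755, 2399.9, 1028 and 2080.3 and LHCA3 (AT1G61520) 2128, 2177, 732 and 1835, and they were at -0.94 and -0.26 in the MTA pair and at 1.13 and 1.44 in the control pair. The proteins of LHCA1 and LHCA4 form a dimer, and their transcripts stood on opposite sides of 0 in both pairs.

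LHCA5 had 42, 136, 22 and 34 reads and LHCA6 63, 137, 103 and 36. LHCA5 was higher in the control IP at 1.57 (0.78 to 2.44) and lower in the double ratio at -1.76 (-2.67 to -0.84). LHCA6 was the gene of the set with the double ratio nearest to 0, at -0.21 (-0.91 to 0.48), and the inputs differed by 0.11 (-0.36 to 0.58). The difference between the inputs was the smallest of the set. A gene that overlaps LHCA5 in the reference held 41.03% as many reads, so reads of the pair may be misassigned.

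The peripheral subunits of photosystem I dock the electron carriers and the antenna on the plastid-encoded core. PSAD and PSAE form the side that binds ferredoxin. PSAD1 (AT4G02770) took 1530.0, 602, 561 and 552 CPM and PSAD2 (AT1G03130) 436, 309.6, 170.2 and 353. PSAE1 (AT4G28750) took 1532, 606, 477 and 510.4 and PSAE2 (AT2G20260) 394, 221, 141 and 191. In the MTA pair PSAD1, PSAE1 and PSAE2 were lower, at -1.64, -1.63 and -1.13, and PSAD2 was at -0.79. With the control PSAD2 was higher at 1.17 (0.94 to 1.4), and PSAD1, PSAE1 and PSAE2 were at 0.091, 0.21 and 0.55.

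PSAF (AT1G31330), which binds plastocyanin, took 1356, 1203, 527 and 1136 CPM and was at -0.47 and 1.22 in the pairs. PSAL (AT4G12800) and PSAG (AT1G55670) had the lowest double ratios among genes with over 1000 reads in all, PSAL at -2.48 (-2.66 to -2.3) and PSAG at -2.37 (-2.58 to -2.16). PSAL, part of the docking site for mobile LHCII, took 1500.3, 993, 333 and 928, and PSAG, at the antenna side, took 956, 683, 239 and 664. For both genes the IPs lay close together and the MTA input stood far above the control input, at 2.22 and 2.06 on the log2 scale. PSAK (AT1G30380) took 693, 688, 342 and 667, PSAN (AT5G64040) 369, 369, 158 and 327 and PSAO (AT1G08380) 1317, 757, 439 and 713. PSAK and PSAN, at 1.08 and 1.16, were higher in the control IP, and PSAO was lower in the MTA IP at -1.1. PSAH1 (AT3G16140) took 479, 208, 129.5 and 159 and PSAH2 (AT1G52230) 618, 234, 256 and 229.5, and both were lower in the MTA IP, at -1.5 and -1.7. Of the 12 photosystem I subunit genes, 6 were lower in the MTA pair, 6 higher in the control pair and 12 lower in the double ratio. The shares of all tested loci with these calls were 8.4%, 9.18% and 8.9%.

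PSBO, PSBP, PSBQ and PSBR (AT1G79040) stabilise the oxygen-evolving complex on the lumenal side of photosystem II. PSBO1 (AT5G66570) took 3444, 2307, 1585 and 2041 CPM and PSBO2 (AT3G50820) 944, 491, 273 and 424. PSBP1 (AT1G06680) took 1681, 1379.8, 616 and 1183, and PSBR 1819, 1304, 709.8 and 966. PSBQ1 (AT4G21280) took 318, 288, 136 and 255 and PSBQ2 (AT4G05180) 1116, 770.5, 373 and 774. Of these 6 genes, PSBP1, PSBQ1 and PSBQ2 were higher in the control IP, at 1.06, 1.02 and 1.17, and PSBO2 was lower in the MTA IP at -1.24 (-1.36 to -1.12). PSBO1 and PSBR passed the size rule in neither pair, at -0.87 and -0.78 in the MTA pair and 0.48 and 0.56 in the control pair. All 6 were lower in the double ratio, from -2.0 at PSBQ2 to -1.34 at PSBR, against 8.9% of all loci.

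Among the small subunits of photosystem II the spread between genes was wide. PSBTN (AT3G21055), a short lumenal protein, took 1359, 317, 374 and 221 CPM and was the lowest gene of the set in both pairs, at -2.39 (-2.51 to -2.27) in the MTA pair and -0.64 (-0.87 to -0.42) in the control pair. PSBX (AT2G06520) took 565, 603, 135 and 453 and PSBW (AT2G30570) 674, 729, 228 and 604, and both were higher in the control IP, at 1.86 (1.63 to 2.1) and 1.52 (1.33 to 1.71), and little below 0 in the MTA IP, at -0.2 and -0.18. PSBY (AT1G67740) took 840.2, 353, 200.4 and 285 and was lower in the MTA IP at -1.55 (-1.68 to -1.42). PSBS (AT1G44575), the sensor of lumen acidity needed for rapid heat dissipation, took 432, 251, 151 and 165. It was lower in the MTA pair at -1.08 (-1.26 to -0.91) and had the highest ratio of the set between the IPs, at 0.25 (0.0031 to 0.51).

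The electron carriers stood nearer to the typical locus in the control pair than the other roles. There 0 of 6 carriers were higher, against 9.18% of all loci. With only 6 genes, a count of 0 cannot be told apart from this share. Pooled, the log2 ratio of the carriers in the control pair was -0.01 (-0.086 to 0.066), against 1.73 (1.7 to 1.75) for the pooled LHCII genes. PETE2 (AT1G20340), the major plastocyanin gene, took 1882, 559, 734 and 519.8 CPM and was below 0 in both pairs, at -2.05 (-2.14 to -1.95) and -0.38 (-0.54 to -0.23). PETE1 (AT1G76100) had 70, 170, 83 and 46 reads and was at -0.6 (-1.02 to -0.18) and 0.11 (-0.44 to 0.65). PETC (AT4G03280) took 453, 278, 173 and 229.5 and FD2 (AT1G60950) 582, 246, 152 and 194. FD2, the main leaf ferredoxin, was lower in the MTA IP at -1.54 (-1.69 to -1.38) and higher in the MTA input than in the control input at 1.99 (1.78 to 2.21).

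LFNR1 (AT5G66190) took 496, 348, 319 and 299.7 CPM and LFNR2 (AT1G20020) 1218, 926, 994 and 929.6. The reductase genes were near 0 in the control pair, at 0.022 (-0.19 to 0.23) and 0.017 (-0.1 to 0.14), and differed by less than 2-fold between the inputs, at 0.69 and 0.35. With LHCA6 and PETE1, they were the 4 genes of the set that were not called lower in the double ratio, at -0.83, -0.71, -0.21 and -0.72. Of the ATP synthase, ATPC1 (AT4G04640) took 426, 389, 166 and 321 and ATPD (AT4G09650) 357, 193, 114 and 168. ATPD was lower in the MTA pair at -1.18 and ATPC1 higher in the control pair at 1.07. Both were lower in the double ratio, at -1.49 and -1.84.

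Although the pairs were shifted against each other, the genes kept much the same order in them. Over the 51 genes, Pearson's r between the log2 ratios of the MTA pair and the control pair was 0.81 and Spearman's rho 0.78. Over all 15669 tested loci, many with few reads, r was 0.4, and without the LHCB1 genes r over the remaining 46 genes was 0.74. The pairs share no library, but the points share the counting of paralogs and the same tissue type, and the values are descriptions. The LHCB1 genes and LHCA4 were at the upper end of both pairs, and PSBTN and PETE2 at the lower end. Transcript length and these ratios had a rho over the 51 genes of 0.1 in the MTA pair and 0.036 in the control pair. The leading transcript entries were 592 to 1757 nt long, with a median of 1162 nt against 1767 nt over 15245 tested mRNA loci. Between the inputs rho with length was -0.054 over the set and -0.15 over these mRNA loci, and the part of length in the difference between the inputs was not tested.

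**Figure D4:**
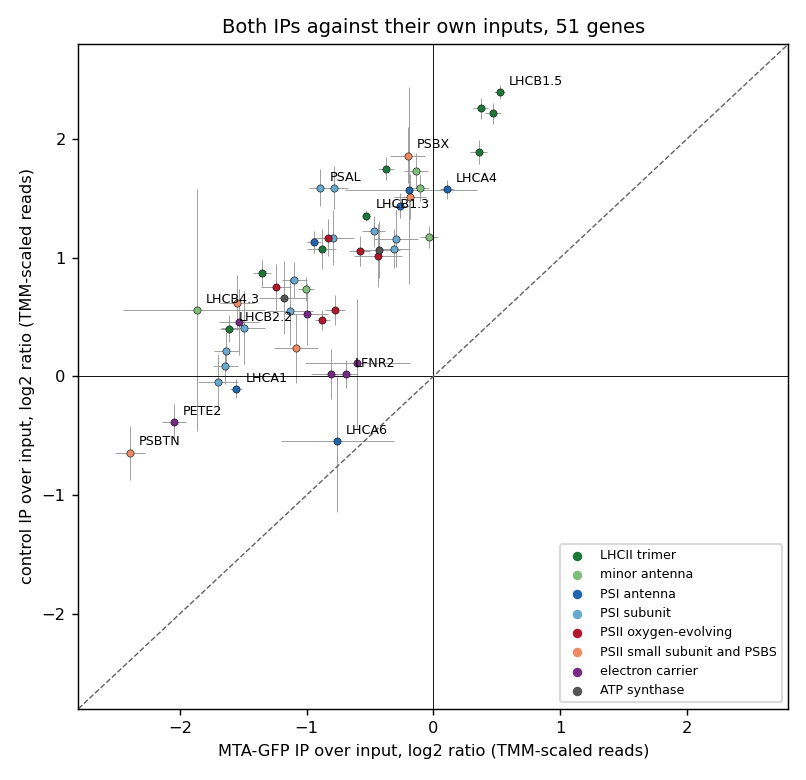
Log2 ratio of the control IP over its input (y axis) against that of MTA IP over its input (x axis) on TMM-scaled reads for the 51 genes, coloured by role, with 95% counting intervals; the dashed line marks equal ratios. All 51 points lie above the dashed line and 41 lie in the upper left, with LHCB1.5 and PSBTN at the ends. The same counts were not made over all loci. Scaled to all reads, all 51 points would lie below the line.

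Shares within a family need no scaling between libraries, and several moved the same way in both IPs. LHCB1.3 held 49.4%, 33.1%, 48.1% and 33.2% of the reads of the 5 LHCB1 genes, so it went from 49.4% (48.8 to 50) to 33.1% (32.8 to 33.4) in the MTA pair and from 48.1% (47.3 to 48.9) to 33.2% (32.6 to 33.8) in the control pair. LHCB1.5 held 21.5%, 29.8%, 22.1% and 31.3%, higher in both IPs. The shares of both genes were thus nearly the same in the inputs and nearly the same in the IPs, whichever line was used. LHCB1.1, LHCB1.2 and LHCB1.3 are neighbours on chromosome 1 and LHCB1.4 and LHCB1.5 on chromosome 2 in the reference. The chromosome 1 genes together held 68.9%, 57.3%, 67.6% and 55.8% of LHCB1 reads. Reads of such close copies are divided by Salmon, so single shares within LHCB1 are uncertain.

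Other families had shares that differed the same way in both IPs. PSAD2 held 22.2%, 33.9%, 23.3% and 39% of PSAD reads, and PSAE2 20.5%, 26.7%, 22.8% and 27.2% of PSAE reads, both higher in each IP than in its input. The intervals of PSAE2 overlapped in the control pair. LHCB2.2 held 42.6%, 36.2%, 45.4% and 36.5% of LHCB2 reads, lower in each IP, and LHCB2.3 14.1%, 19.8%, 16.3% and 20.9%, higher in each IP. PETE1 held 3.55%, 9.09%, 6.17% and 8.49% of plastocyanin reads, with an interval in the control input of 5.0 to 7.58 that overlaps the one in the control IP, 6.42 to 11.1. PSAH1 held 43.7%, 47.1%, 33.6% and 41% of PSAH reads, higher in each IP, with overlapping intervals in each pair. PSBO, PSBQ and LHCB4.1 did not follow. PSBO1 held 78.5%, 82.5%, 85.3% and 82.8% of PSBO reads and PSBQ2 77.8%, 72.8%, 73.3% and 75.3% of PSBQ reads, which moved in opposite directions in the pairs. So did LHCB4.1, at 62.6%, 63.8%, 65.6% and 63.7% of LHCB4 reads, with overlapping intervals in each pair. The intervals of PSBO1 and of PSBQ2 overlapped in the control pair. LHCB4.3, with 56, 56, 21 and 16 reads, held less of LHCB4 in each IP, with overlapping intervals in the control pair. LFNR1 held 28.9%, 27.3%, 24.3% and 24.4% of LFNR reads and kept within 2 percentage points in each pair. The overlapping gene at PSAD2 held 25.1% as many reads as PSAD2 itself and the one at PSAN 37.9%, so reads of these genes may be misassigned. In all, 18 of 51 genes overlap another gene in the reference.

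Within the whole set, the LHCII genes held more of the reads in both IPs. They held 39.1%, 49.9%, 35.5% and 50.5% of the set's reads, and the LHCB1 genes alone 28.9%, 42.6%, 26.6% and 42.4%. The photosystem I subunits held 12.7%, 9.08%, 12.3% and 9.76%, and the electron carriers 5.35%, 3.19%, 7.91% and 3.37%. The make-up of the set was thus close between the IPs, although the inputs differed in how much of the set they held. The minor antenna genes held 9.45%, 10.5%, 10.02% and 10.1%.

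**Figure D5:**
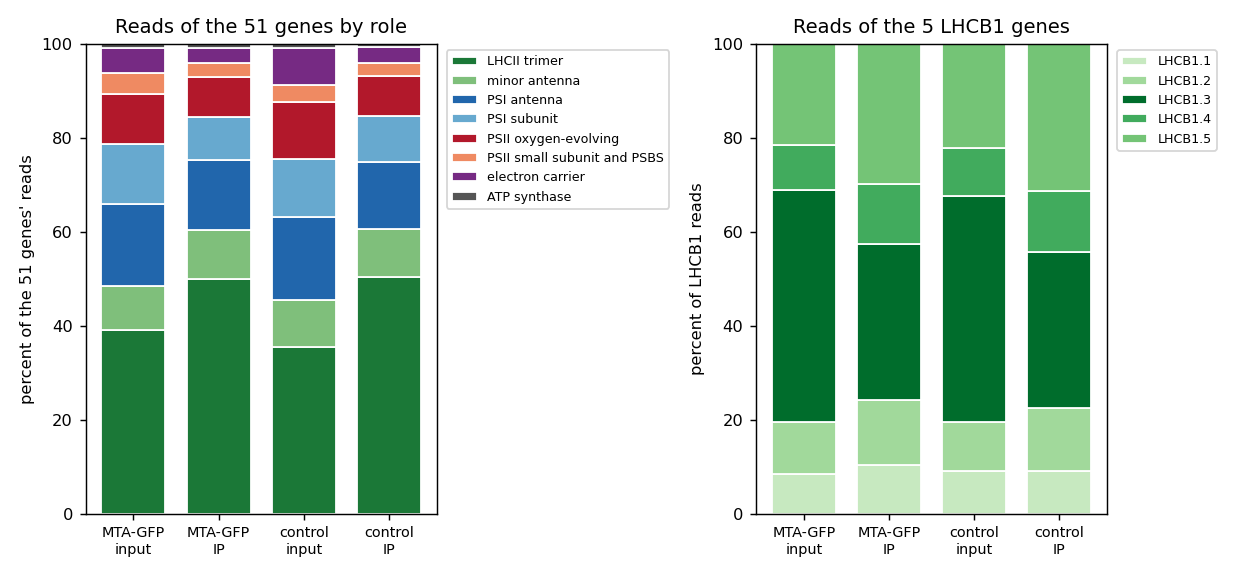
Left, percent of the reads of the 51 genes held by each role in each library; right, percent of LHCB1 reads held by each of the 5 LHCB1 genes. Bars are single libraries that add to 100%; the LHCII part is 49.9% and 50.5% in the IPs against 39.1% and 35.5% in the inputs, and the LHCB1.3 part is smaller in both IPs.

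Transcript entries of one gene also shifted between input and IP. Of the 51 genes, 18 have more than 1 entry, and in 9 of these the leading entry held at least 90% of the reads over all libraries. The share of the leading entry was higher in both IPs in 7 of the 18 genes, lower in both in 7, opposite in the pairs in 3 (LHCB2.3, LHCB4.3 and PSBS) and equal in 1, LFNR1. The examples that follow were chosen after their values were seen, for large differences. For LFNR2, the entry AT1G20020.3 held 47.8%, 4.51%, 31.7% and 6.59% of the gene's estimated reads, lower in both IPs, and AT1G20020.1 5.45%, 22.1%, 1.19% and 17.5%, higher in both. For PSBP1, AT1G06680.1 held 25.1%, 54.3%, 23.4% and 72.2%, higher in both IPs. For LHCB2.1, AT2G05100.2 held 0%, 44.1%, 0% and 57.9%, and for PSAN, AT5G64040.2 held 57.3%, 0%, 25.9% and 0%. Opposite to these, AT1G44575.1 of PSBS held 97.02%, 92.8%, 88.5% and 93.5% and AT1G61520.1 of LHCA3, not its leading entry, 12.4%, 18.04%, 14.8% and 6.71%, with different directions in the pairs. Entries of one gene share most of their sequence, so these parts are estimates of Salmon and no counting interval applies to them.

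The list of other photosynthesis genes holds 47 loci of chlorophyll synthesis, regulation, assembly and repair, cyclic electron flow and LHC-like proteins, of which 43 passed the minimum of 40 reads. Between the inputs 9 were higher and 0 lower, and the median was 0.54 against 1.59 for the antenna and photosystem genes. These 9 can be read against 7.02% of all loci. In the double ratio 11 were lower and 0 higher (median -0.61), against 8.9% and 8.6% of all loci. In the MTA pair 10 were lower and 0 higher (median -0.54), against 8.4% and 7.12% of all loci. In the control pair 6 were higher and 5 lower (median 0.0047), where 9.18% and 12.4% of all loci were called. Between the IPs 0 were higher and 0 lower (median -0.047), against 5.11% and 4.2% of all loci. The difference between the lists was not tested.

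In the double ratio the median was -0.96 for 14 genes of chlorophyll synthesis and -0.15 for the regulators. CHLH, the porphyrin-binding subunit of magnesium chelatase, had 1769, 4636, 1231 and 1229 reads and was lower in the double ratio at -1.46 (-1.6 to -1.32). GSA1, an enzyme of aminolevulinate synthesis, had 74, 188, 48 and 54 reads and was at -1.66 (-2.34 to -0.98). GLK1, one of the GOLDEN2-LIKE activators of antenna genes, had 219, 628, 208 and 136 reads and stood at -0.72 (-1.1 to -0.33) in the double ratio and 0.9 (0.62 to 1.18) between the inputs, below the size rule in each. GLK2 had 318, 592, 537 and 168 reads and stood at -0.28 (-0.6 to 0.04) and 0.069 (-0.14 to 0.27). Of the 6 regulators tested, 0 were lower in the double ratio and 0 higher between the inputs, against 8.9% and 7.02% of all loci. With only 6 genes, counts of 0 cannot be told apart from these shares. The median of the regulators between the inputs was 0.1.

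CPSRP43, which carries antenna proteins to the membrane, had 553, 961, 1217 and 261 reads and was lower in both pairs, at -1.09 and -1.26. FTSH8, a thylakoid protease subunit, was at -1.07 (-1.67 to -0.48) in the double ratio. PGRL1A, of cyclic electron flow, was at -1.33 (-1.73 to -0.93). ABA1, the zeaxanthin epoxidase, had 440, 754, 765 and 176 reads and was lower in both pairs, at -1.11 and -1.15, and near 0 in the double ratio. Of the LHC-like proteins, OHP2 was at -1.39 (-2.37 to -0.41) and LIL3.1 at -1.23 (-1.96 to -0.5) in the double ratio. The mesophyll marker RBCS1A stood near the antenna genes between the inputs, at 1.62, as did CA1, a carbonic anhydrase, at 1.6. The guard cell markers MYB60, FAMA and KAT1 were at -0.4, 0.1 and 0.38 there, and the root marker PYK10, with 27, 54, 66 and 8 reads, at -0.46. All of the 4 epidermis and phloem markers, ATML1 and FDH at 0.064 and 0.36 and SUC2 and APL at 0.82 and 0.8, were below the size rule between the inputs. Between the IPs the phloem markers SUC2 and APL were lower in the MTA IP, at -2.01 (-2.31 to -1.73) and -1.51 (-2.8 to -0.31), and the epidermis marker FDH was higher, at 1.14 (0.8 to 1.49). ATML1 and KAT1 were at 0.78 (0.43 to 1.17) and 0.85 (0.13 to 1.69) there, RBCS1A at 0.3 and CA1 at -0.063. FAMA, MYB60 and PYK10, at -0.22, 1.13 and 0.71, had intervals that included 0. The part of these cell types in the differences between libraries was not tested.

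The plastid-encoded subunits of the same complexes made up less of both IPs than of both inputs. The 32 plastid genes took 0.459, 0.0942, 0.632 and 0.159% of all reads, 0.205-fold (0.203 to 0.208) in the MTA pair and 0.252-fold (0.25 to 0.254) in the control pair. As a share of all reads, 30 of 32 were lower in the MTA IP than in its input and 32 of 32 in the control IP, by their point values. psbA, which encodes the D1 protein of photosystem II, had 125585, 22553, 153443 and 49438 reads. It was 0.219-fold (0.216 to 0.222) in the MTA pair and 0.285-fold (0.282 to 0.288) in the control pair. psaA, of the photosystem I core, had 9454, 1583, 12950 and 4034 reads, and atpA, of the ATP synthase, 8294, 699, 11638 and 1159. Both showed the same direction, psaA at 0.204-fold and 0.276-fold and atpA at 0.103-fold and 0.0882-fold. petB of cytochrome b6f had 1995, 368, 2420 and 503 reads.

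Among the plastid genes with the largest double ratio of their role, psaJ had 531, 97, 1554 and 109 reads, psbM 44, 39, 154 and 27, petL 27, 11, 31 and 9 and atpF 2028, 388, 4478 and 478. psbM was at 1.08-fold (0.683 to 1.7) in the MTA pair, and psbL, named after its value was seen, was the other plastid gene that was not lower there, at 1.09-fold. Between the inputs the plastid-encoded subunits were 0.726-fold (0.722 to 0.731) in the MTA input over the control input on the share of all reads, while the nuclear genes were 1.53-fold (1.52 to 1.55). The sums of the nuclear and plastid subunits thus differed in opposite directions between the inputs on this scale. Singly, 47 of the 51 nuclear genes were above 1 and 4 below, and 31 of the 32 plastid genes were below 1. The summed electron carriers were at 1.04-fold (0.996 to 1.08), an interval that included 1. The list of other photosynthesis genes, also nuclear, was at 0.739-fold (0.721 to 0.758), the direction of the plastid genes. These plastid mRNAs were lower in the control IP although chloroplast RNA of all kinds was highest there at 49.8% of reads.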

How the data were processed

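Each of the 4 deposited tables gives, by its header, TPM and the estimated count per transcript entry. The submitters' processing notes name TAIR10, Trimmomatic, Bowtie, HISAT2 and Salmon, without roles. No version or strand setting was given in the sources used here. Antisense and overlapping genes may therefore share reads. The authors' deposited TPM values were used as an alternative.

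The estimated counts, as deposited, were added up over the entries of a locus and then rounded. Symbols, gene types and neighbours came from a RefSeq gene table (assembly TAIR10.1), which held all 51 genes. No sequence was used here. Libraries were scaled by TMM (edgeR 4.0.16, R 4.3.3) on 15669 nuclear loci with at least 40 reads in all, at 0.641, 2.37, 1.13 and 0.581, and 0.5 was added to scaled reads before log2. The interval of a ratio between 2 libraries is the exact conditional one (Clopper-Pearson), and that of a double ratio comes from Poisson variances. Nuclear mRNA means protein-coding loci over 10 kb from ribosomal RNA genes. With 1 library a group no test was possible. The procedure was run on simulated counts with Poisson noise, which the intervals also assume, and with changes placed in the MTA IP alone. The simulation held no further variation between libraries, so it cannot show how the intervals behave under such variation. The genes, lists and ratios were chosen with earlier results of these data known. All 51 genes may be named. Of the other lists, the gene with the most reads and the one with the largest double ratio per role are named.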

Additional observations from a re-analysis of the deposited data

Results flagged for a closer look

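The antenna and photosystem genes lay on opposite sides of 0 in the MTA and the control pair, 41 of 51 of them below 0 in the MTA pair and above 0 in the control pair. With 1 library in each group this difference between the lines was not tested, and the share of all tested loci with this pattern was not computed. Pooled over all 51 genes the log2 ratio was -0.51 (-0.52 to -0.5) in the MTA pair and 1.22 (1.2 to 1.24) in the control pair, a double ratio of -1.73, and without the LHCB1 genes the double ratio was -1.69. By role, the pooled double ratio was -1.89 for LHCII, -1.6 for the minor antenna, -1.66 for the LHCA genes and -1.88 for the photosystem I subunits. It was -1.53 for the oxygen-evolving proteins, -1.86 for the small photosystem II subunits with PSBS, and -1.64 for the ATP synthase genes. The pooled double ratio of the electron carriers was -1.25 (-1.34 to -1.16). Their pooled ratio in the control pair, -0.01 (-0.086 to 0.066), had an interval that included 0, so the pool was not placed on opposite sides. Singly, 6 of 6 carriers were below 0 in the MTA pair and all but PETE2 were above 0 in the control pair. The intervals of PETE1, LFNR1 and LFNR2 in the control pair included 0. Scaled to all reads, these pooled double ratios lie above 0 for each role, at 1.58 for all 51 genes, 1.42 for LHCII and 2.06 for the carriers.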

How the results depend on the processing

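Of 142 recomputed counts and shares, 114 stayed within 1.5 times the count reported or within the interval of the share of all reads. Shares over other denominators had to leave that interval, and many of the unmoved counts were 0 in both settings. The tally is therefore no measure of how stable the results are. Median-of-ratios factors, TMM without the genes themselves, lower minimum reads, 1 or 5 added reads and families summed as 1 locus moved no count of calls by over 1.5 times. With families summed the counts are out of 36 loci and not 51 genes, so that comparison is between unlike sets. Scaled to all reads, the genes higher and lower were 37 and 0 in the MTA pair (median log2 1.38), 3 and 9 in the control pair (-0.12), 48 and 0 in the double ratio (1.57), 6 and 0 between the inputs, and 51 and 0 between the IPs (2.2). On deposited TPM, where a call needs 2-fold alone, they were 19 and 0 (0.83) in the MTA pair, 1 and 0 in the double ratio and 48 and 0 (1.25) between the IPs. Shares of all loci called were computed only for the TMM scaling reported above. On all reads the median log2 of all tested loci was 2.11 in the MTA pair, -1.12 in the control pair and 3.25 in the double ratio. It was -0.95 between the inputs and 2.31 between the IPs. On TPM it was 1.07 in the MTA pair, 1.11 in the double ratio and 0.98 between the IPs. Scaled to mRNA reads, 12 genes were lower in the MTA pair, with or without AT2G16586, an alternative chosen after seeing the data, and the median between the IPs was 0.21 or 0.00076. With only the leading entry of each locus 1 gene was higher in the MTA pair, and with calls at 1.5-fold 31 were lower there and 1 lower in the control pair. The read scalings differ by construction in a factor per library, and the cause of the TPM values was not tested. The genes' share was 8.79, 7.57, 3.06 and 6.58% of mRNA reads, 8.87, 7.6, 3.11 and 7.64% without AT2G16586, and 0.256, 0.679, 0.174 and 0.283% of reads outside organelles. No paired analysis was possible because each group holds 1 library. Depth limits LHCB4.3, LHCA5, LHCA6 and PETE1, with 16 to 170 reads per library.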
